A study of Mus musculus with 36 samples.

Results

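The data compare neurons of the mouse superficial superior colliculus (labelled sSC) whose progenitors had been marked through Fz10-CreER with neurons marked through Sox2-CreER. The comparison holds 22 of the 36 sequenced neurons, 15 of them from 11 Fz10-CreER clones and 7 from 5 Sox2-CreER clones. Neurons were assigned by their tissue and genotype labels alone, so no measured value chose them. The genotypes are M11GTTG-Fz10-CreER and M11GTTG-Sox2-CreER. Both share the M11GTTG marker alleles of MADM, a mixed C57/Bl6, FVB and CD1 background, and marking on embryonic day 12. The age at collection is given only as a range for the mice of the whole study. Of the 11 Fz10-CreER clones, 4 gave 2 sSC neurons and 7 gave 1, and of the 5 Sox2-CreER clones, 2 gave 2 and 3 gave 1. The remaining cell of the single-cell clones lay in deep colliculus (dSC), except in 1 Sox2-CreER clone, where it lay in PAG.

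MADM (mosaic analysis with double markers) recombines a pair of split fluorescent reporters in a dividing cell, so that the daughters of a single progenitor can be found later as a sparse clone. CreER is a Cre recombinase that enters the nucleus only when tamoxifen is present, and the gene that drives it sets which progenitors can recombine at that time. Fzd10 encodes a Frizzled receptor for Wnt ligands, known from the dorsal neural tube, where Wnt signals pattern the roof and the adjacent progenitors. Sox2 encodes a SoxB1 transcription factor that neural progenitors carry broadly and that most neurons switch off as they differentiate. The superficial colliculus is the retinal input layer of the midbrain tectum and holds glutamatergic and GABAergic neurons. A driver reports the progenitor at the moment of marking, so the adult neuron need not carry the driver's gene. The comparison asks whether the neurons of superficial colliculus differ by the driver that marked their progenitor.

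Each clone was treated as 1 replicate by averaging log2(value + 1) over its sSC cells. No animal is named in the labels, so clones may share one. Every p-value therefore measures only the spread between these clones and may be too small, and clone, animal and collection cannot be told apart. The drivers are separate genotypes, so driver too cannot be told apart from animal and collection. The values are a normalised signal that sums to 2000000 in every cell, so read depth is unknown, and a library is described by how many of its genes reach a value of 1. The number of genes detected per clone averaged 9927.5 ± 2874 in Fz10-CreER clones (SD, n = 11) and 11889.6 ± 4181 in Sox2-CreER clones (SD, n = 5). The difference of -1962 genes (SE 2061) was within the spread between clones (two-sided exact permutation p = 0.289, with 0.000458 the smallest that 4368 assignments allow). It was -742 without Sox2-CreER clone Q, -1235 without Fz10-CreER clone B, and -3389.5 without Sox2-CreER clone H (exact p = 0.0513). Clone B, with 2661 genes, lay far below the median Fz10-CreER clone at 10683.5, and the 5 Sox2-CreER clones ran from 6180 (clone H) to 16769 (clone Q). A group of 11 gene models, each above 1% of the mean signal, took 27.5% ± 12.9 in Fz10-CreER clones (SD, n = 11) and 23.9% ± 3.35 in Sox2-CreER clones (SD, n = 5; exact permutation p = 0.614).

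**Figure D1:**
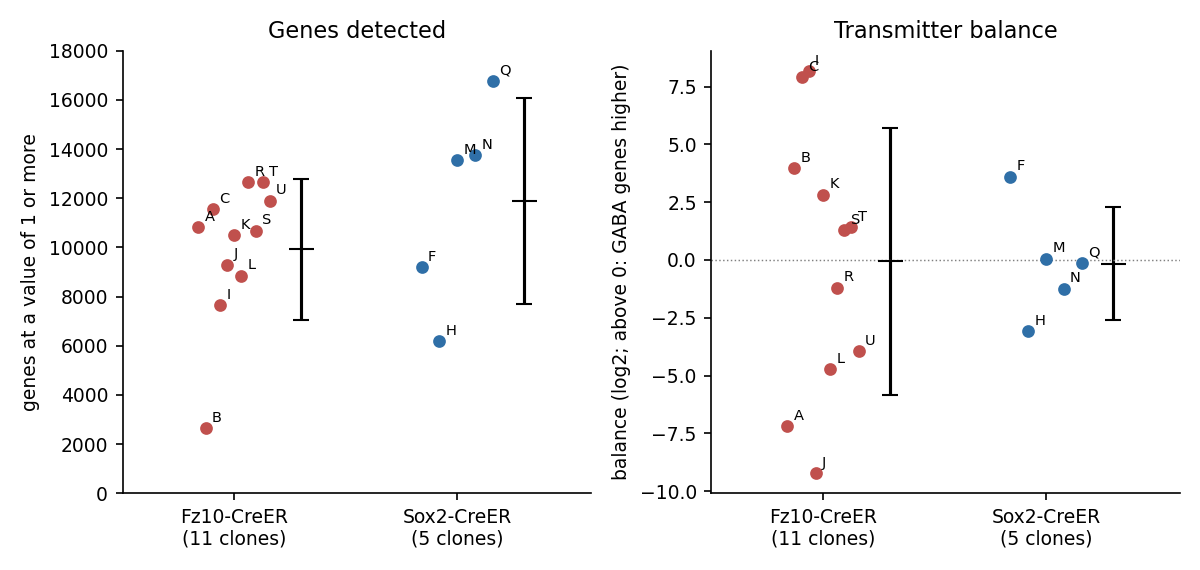
Genes detected (left) and transmitter balance (right) for each sSC clone, 11 Fz10-CreER and 5 Sox2-CreER, with the mean and SD as bars beside the points and the clone letter at each point. The groups overlap in both measures. Clone B has 2661 genes, and the Fz10-CreER clones span the wider range of balance, from -9.22 to 8.18.

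Neuronal markers were detected in every library, but glial markers outweighed them in 5. The summed values of 15 astrocyte, 15 oligodendrocyte or 15 microglia markers exceeded the sum of 15 neuronal markers in 2 of 15 Fz10-CreER neurons (clones B and L) and 3 of 7 Sox2-CreER neurons (clone H and both neurons of clone M). The neuron of clone B had a neuronal sum of 2348 against 3814 for astrocytes, 13192 for oligodendrocytes and 8501 for microglia, and Tubb3, Stmn2, Eno2 and Elavl4 were at 0 in it. That of clone L had 4008 against 6797 for oligodendrocytes. The neuron of clone H had 4315 against 15932 for microglia, and those of clone M had 7493 and 6590 against 8572 and 31223 for oligodendrocytes. These 5 libraries were also left out together, an alternative chosen after seeing the data that leaves 9 Fz10-CreER and 3 Sox2-CreER clones. Snap25, a membrane fusion protein of the synapse, ran from 299.8 to 3562 in the 15 Fz10-CreER neurons (median 2364) and from 1606 to 3338 in the 7 Sox2-CreER neurons (median 2139). Its clone means differed by -0.21 on the log2 scale (SE 0.62, 95% interval -1.48 to 1.05), a sign that turned with the number of genes as a covariate (0.12), without clone B (0.05), without the 2 cells of fewest genes (0.04) and without the 5 libraries (0.14). Of 15 neuronal markers, 11 to 15 were at 1 or more in each Fz10-CreER neuron and 14 to 15 in each Sox2-CreER neuron. The median difference of these markers was -0.10, with 10 of 15 lower and 5 higher in Fz10-CreER clones. Thy1, a surface protein of projection neurons, had a median of 221 in Fz10-CreER neurons and 112 in Sox2-CreER neurons, a difference of 1.35 (SE 0.89). Uchl1, a neuronal ubiquitin hydrolase, differed by 1.13 (SE 0.92), by -0.19 without the 5 libraries, and by -0.26 without Sox2-CreER clone H, whose neuron had 7.88 where the other 21 had 288.7 or more.

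Across the transcriptome no gene separated the drivers at the threshold used, a limma p adjusted by Benjamini-Hochberg under 0.05. Of 14320 genes tested, 0 passed (0%), and the smallest adjusted p was 0.324. At an unadjusted p under 0.05, 551 genes were lower in Fz10-CreER clones (3.85%) and 36 were higher (0.251%). Clone means did not overlap between the drivers for 4 genes lower in Fz10-CreER clones (0.0279%) and for 0 genes higher (0%). Under random labels, with 4368 assignments, a gene separates in 1 direction or the other with a probability of up to 0.000458. That is an upper bound for both directions together, so it cannot show whether these 4 genes exceed random labels, and this was not tested. The median difference over all genes was -0.38 with 66.0% of genes lower in Fz10-CreER clones, and the median SE of a gene was 1.14. The direction of this shift moved with the scaling. After quantile normalization the median was 0.025, and 323 genes lower and 170 higher had an unadjusted p under 0.05. With the number of genes detected as a covariate the median was 0.13, with 346 lower and 484 higher. Single clones moved it as well, to -0.78 without Sox2-CreER clone H, to -0.14 without Sox2-CreER clone Q and to -0.15 without Fz10-CreER clone B. Without the 5 libraries in which glial markers outweighed neuronal ones, 0 genes passed, 605 were lower and 93 higher at an unadjusted p under 0.05, and the median was -0.44. Differences of gene lists are therefore set beside that of all genes.

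**Figure D2:**
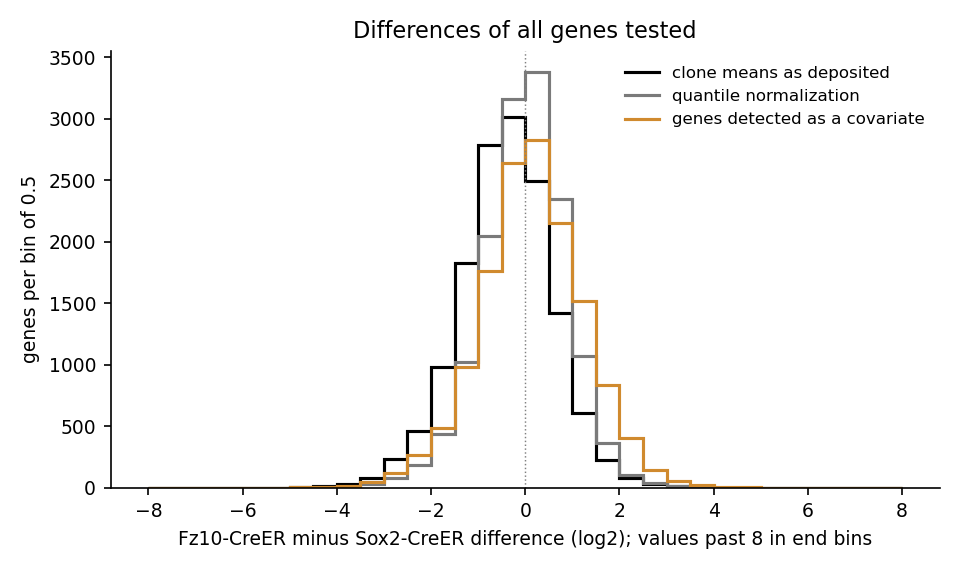
Histogram of the Fz10-CreER minus Sox2-CreER difference (x axis, log2, bins of 0.5) over all genes tested (y axis, genes per bin) for the clone means as deposited, after quantile normalization, and with the covariate of genes detected. The median lies at -0.38, 0.025 and 0.13 in these settings, so most genes are lower in Fz10-CreER clones in the first setting only.

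Chrac1 had the smallest p. It encodes a histone-fold subunit of the CHRAC complex, an ISWI-type chromatin remodeller. Its value reached 1 or more in 6 of 15 Fz10-CreER neurons (highest 172, median 0) and in 7 of 7 Sox2-CreER neurons (63.7 to 1029.9, median 255). By clone, it was 0 in 6 of 11 Fz10-CreER clones, and the others lay between 1.69 and 6.33, whereas Sox2-CreER clones F, H, M, N and Q had 9.52, 8.24, 7.01, 8.92 and 7.87 on the log2 scale. The clone means did not overlap. The difference was -6.27 (SE 1.25, 95% interval -8.83 to -3.71), and its limma adjusted p of 0.324 missed the threshold. It passed in 1 of 33 alternatives, a pseudocount of 10 (-4.10, adjusted p = 0.037), and the adjusted p ran from 0.0512 to 0.753 in the others. The sign was the same in all 33, with the difference between -8.39 and -4.10, and it was -6.27 without the 5 libraries (adjusted p = 0.399).

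Chrac1 overlaps Ago2 on the opposite strand, and the use of strand is not given in the sources used here. Reads in the stretch that both genes share therefore cannot be told apart. The length of that stretch was not measured. Ago2, the slicing Argonaute of the small RNA pathway, ran from 0 to 42.6 in Fz10-CreER neurons (median 12.8) and from 0 to 66.0 in Sox2-CreER neurons (median 25.4). Its difference was -1.07 (SE 1.13, 95% interval -3.39 to 1.24). Pole3, the histone-fold partner of CHRAC1, had a median of 14.3 in Fz10-CreER neurons and 61.3 in Sox2-CreER neurons, with a difference of -1.96 (SE 1.34). The other ISWI genes lay on both sides. Of 11 ISWI complex genes tested, 5 were lower and 6 higher in Fz10-CreER clones, with a median of 0.17 against -0.38 for all genes, and this median was -1.03 without clone H and -0.67 without the 5 libraries. Among 13 Argonaute and microRNA processing genes, 10 were lower and 3 higher, with a median of -0.70. That median became -0.09 after quantile normalization and 0.12 once the covariate was added. Prkra, a double-stranded RNA binding partner of Dicer, differed by -3.22 (SE 1.19). Xpo5, the nuclear exporter of microRNA precursors, differed by -2.61 (SE 1.12). Both had an unadjusted p under 0.05 (limma, 0.0107 for Prkra and 0.0266 for Xpo5), and neither passed after adjustment. They were named for the smallest p among the 13, and 3.85% of all genes tested were lower at that level.

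Most of the other protein-coding genes of smallest p on the lower side were scarce genes, listed at 0 in 11 to 14 of the 15 Fz10-CreER neurons, where a 0 can also be a failed capture. Scx, a transcription factor of tendon, was above 0 in 1 of 15 Fz10-CreER neurons (6.11) and in 5 of 7 Sox2-CreER neurons (highest 47.9), and its clone means did not overlap (-3.06, SE 0.67, adjusted p = 0.38). Prrg1, a Gla-domain membrane protein, reached at most 4.05 in Fz10-CreER neurons and 18.7 in Sox2-CreER neurons, where 6 of 7 were at 1 or more (-2.86, SE 0.66). Krt1, an epidermal keratin, reached 1 in 2 of 15 Fz10-CreER neurons and 6 of 7 Sox2-CreER neurons (-3.89, SE 0.90). Scx and Krt1 are known mainly from tissues outside the brain. Vamp3, a vesicle SNARE of recycling endosomes, reached 1 in 4 of 15 Fz10-CreER neurons (highest 127) and 6 of 7 Sox2-CreER neurons (highest 198), with a difference of -4.76 (SE 1.12, adjusted p = 0.38). 4930447C04Rik, a component of the meiotic synaptonemal complex that overlaps Six6 on the opposite strand, differed by -4.33 (SE 1.02).

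Ints12, a subunit of the Integrator complex that processes small nuclear RNA, reached 1 in 1 of 15 Fz10-CreER neurons and 6 of 7 Sox2-CreER neurons (-2.80, SE 0.69, adjusted p = 0.472). Slc25a20, the mitochondrial carnitine carrier, reached 1 in 3 of 15 Fz10-CreER neurons and 6 of 7 Sox2-CreER neurons (-3.09, SE 0.79, adjusted p = 0.54). Prrg1, Ints12 and Slc25a20 were all at 0 in the Sox2-CreER clone H neuron, the one with the fewest genes of its group. Without clone H these genes passed the threshold, with limma adjusted p of 0.0272 for Prrg1 and 0.0391 each for Ints12 and Slc25a20, as did Gm16312 and Gm14705. St6gal1, a sialyltransferase, and Gm8822, a processed pseudogene, complete the 4 genes without overlap, and both were chosen after their values were seen. St6gal1 reached at most 10.2 in Fz10-CreER neurons and lay between 2.94 and 26.05 in Sox2-CreER neurons (-2.39, SE 0.77). Gm8822 reached at most 6.20 in Fz10-CreER neurons and lay between 4.63 and 43.1 in Sox2-CreER neurons (-3.69, SE 0.82, adjusted p = 0.38). A pseudogene shares sequence with its parent gene, so the source of its reads is uncertain.

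On the higher side the 8 genes named had an adjusted p of 1.00 each, and the clone means of every one of them overlapped. Fopnl, a centrosomal protein, ran from 39.1 to 606 in the 15 Fz10-CreER neurons (median 109) and from 0 to 181 in Sox2-CreER neurons (median 62.1), with a difference of 3.25 (SE 1.15, 95% interval 0.91 to 5.601). Rcc1, the nucleotide exchange factor of Ran, had a median of 168 in Fz10-CreER neurons and 33.3 in Sox2-CreER neurons (3.44, SE 1.31). Yeats4, a reader of acylated histones, had a median of 134 in Fz10-CreER neurons and 95.4 in Sox2-CreER neurons (3.09, SE 1.24). All 3 were at 0 in the Sox2-CreER neurons of clones F and H, which had the fewest genes detected in their group (9192 and 6180), and the part of detection in these differences was not tested beyond the covariate. With the covariate of genes detected the differences were 3.61 for Fopnl, 4.75 for Rcc1 and 3.69 for Yeats4, none past the threshold.

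Trim47, a RING-type ubiquitin ligase, reached 1 in 14 of 15 Fz10-CreER neurons (median 5.57, highest 199) and 1 of 7 Sox2-CreER neurons (3.44), with a difference of 2.69 (SE 1.00). Ddb2, which recognises ultraviolet lesions in DNA, had a median of 165 in Fz10-CreER neurons and 21.3 in Sox2-CreER neurons (2.85, SE 1.10). The 7 Sox2-CreER neurons did not exceed 44.9, a level that 10 of the 15 Fz10-CreER neurons passed. Fabp5, an intracellular fatty acid carrier, had a median of 337 in Fz10-CreER neurons and 95.03 in Sox2-CreER neurons (2.86, SE 1.13), and its difference was 1.43 without clone H. Tmem230, a membrane protein of secretory vesicles, and Tmem203, a membrane protein of the endoplasmic reticulum, differed by 2.85 (SE 1.10) and 3.28 (SE 1.29). Fopnl, Rcc1, Ddb2 and Tmem203 overlap genes on the opposite strand (Gm15868, Gm17300, Acp2 and Ndor1), as do Scx (Bop1) and Ints12 (Gstcd). So do several genes named below (Pax6, Prox1, Fzd3, Sox8, Gad1, Hcn3, Syt2, Grin2d and Hspd1 among them). Reads in the shared stretches of these genes are uncertain in the same way.

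**Figure D3:**
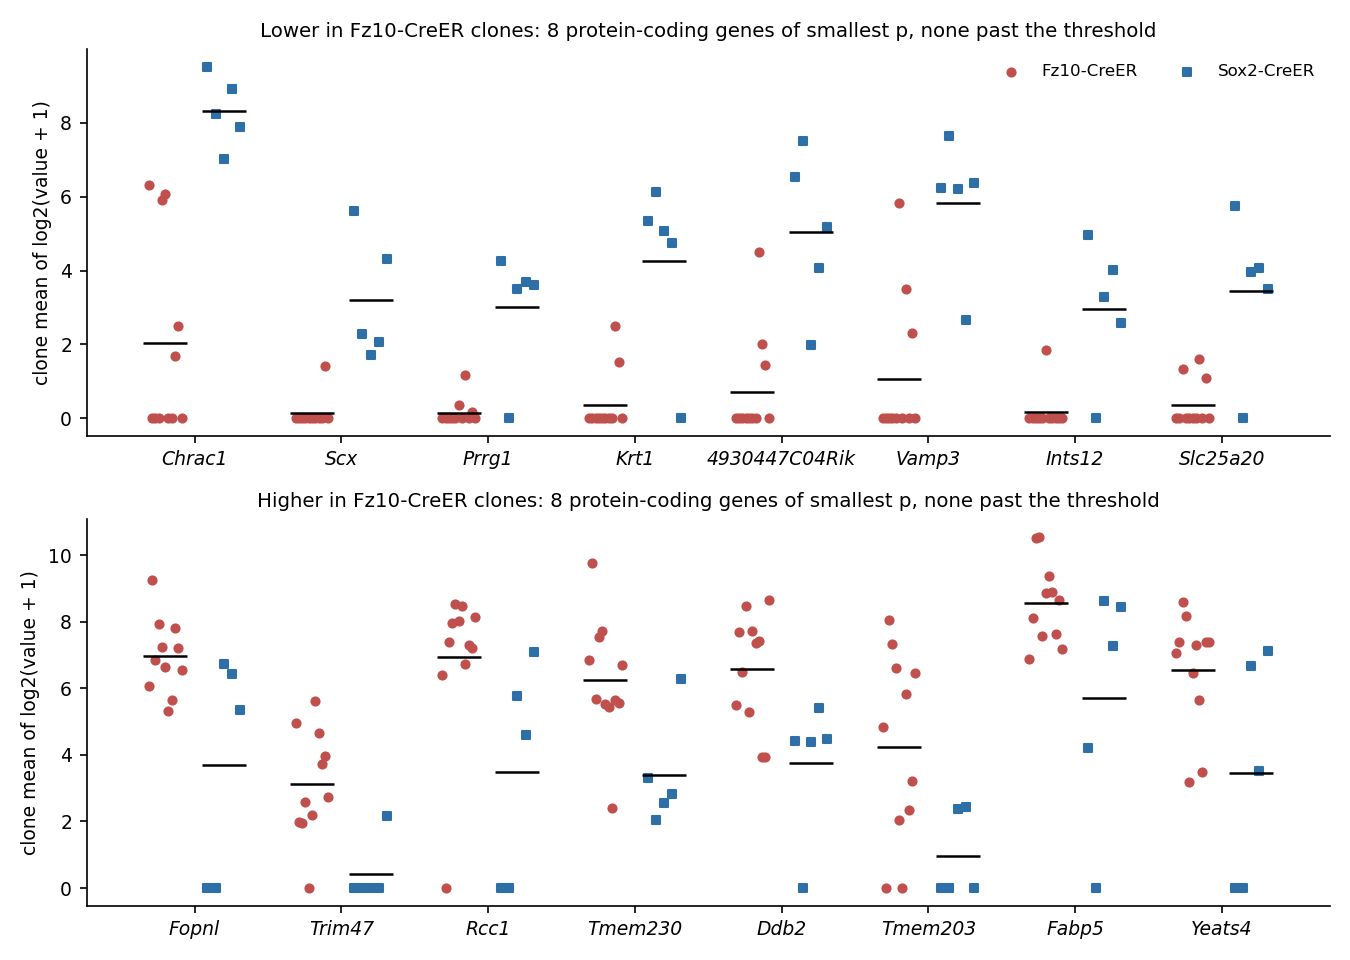
Clone means of log2(value + 1) for the 8 protein-coding genes of smallest p lower (top) and higher (bottom) in Fz10-CreER clones, with 11 Fz10-CreER clones as red circles left of 5 Sox2-CreER clones as blue squares and the group mean as a black line. Chrac1 and Scx do not overlap between the drivers, and the genes of the bottom row all do.

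No transmitter gene differed past the threshold between the drivers, and the Fz10-CreER clones covered the wider range. Transmitter balance, taken as Slc17a6 subtracted from the average of Slc32a1, Gad1 and Gad2 in log2(value + 1), averaged -0.06 ± 5.77 in Fz10-CreER clones (SD, n = 11) and -0.15 ± 2.44 in Sox2-CreER clones (SD, n = 5). The difference was 0.09 (SE 2.06, two-sided exact permutation p = 0.972). Fz10-CreER clones ran from -9.22 in clone J to 8.18 in clone I. Sox2-CreER clones F, H, M, N and Q had 3.61, -3.08, 0.05, -1.24 and -0.11. Of the 15 Fz10-CreER neurons, 9 had a balance above 0, and of the 7 Sox2-CreER neurons, 3 did. The difference in spread was not tested, and the means of clones R, M and N average siblings whose balances have opposite signs. That of clone K averages siblings at 5.65 and -0.001.

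Slc17a6, which loads glutamate into vesicles in midbrain excitatory neurons, ran from 0 to 849.9 in Fz10-CreER neurons (median 68.6) and from 20.3 to 424 in Sox2-CreER neurons (median 164). The difference was -1.50 (SE 1.46, 95% interval -4.47 to 1.48). Gad1, a GABA-synthesising enzyme, ran from 0 to 1145 in Fz10-CreER neurons (median 282) and from 55.3 to 944 in Sox2-CreER neurons (median 535), a difference of -1.80 (SE 1.29, interval -4.43 to 0.82). Gad2, the second such enzyme, differed by -2.51 (SE 1.42, interval -5.40 to 0.38). Both kinds of marker were thus at or above 9.92 in each of the 7 Sox2-CreER neurons, whereas 3 of 15 Fz10-CreER neurons were at 0 for Slc17a6 and 1 each for Gad1 and Gad2. Those at 0 were of clones B, C and I for Slc17a6, J for Gad1 and L for Gad2. Glial markers outweighed neuronal ones in the neurons of clones B and L, not in the others. Genes detected had a median of 11544 in Fz10-CreER neurons and 13450 in Sox2-CreER neurons, and the part of detection in this contrast was not tested. Slc32a1, the vesicular GABA transporter, had a median of 11.7 in Fz10-CreER neurons and 9.96 in Sox2-CreER neurons, a difference of 0.10 (SE 1.14) whose sign turned in 9 of 33 alternatives.

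At a level of 100, 5 of 15 Fz10-CreER neurons had Slc17a6 alone, 10 had Gad1 or Gad2 alone and 0 had both. Of the 7 Sox2-CreER neurons, 1 had Slc17a6 alone, 3 had Gad1 or Gad2 alone and 3 had both. This count rests on values close to the level. The neurons with both were those of clones H and Q and 1 neuron of clone M. In the clone H neuron and that clone M neuron, the higher of Gad1 and Gad2 was 113 and 109.7. Glial markers outweighed neuronal ones in both of these libraries, and the clone Q neuron had the most genes detected of all sSC neurons (16769). The part of library content in this count was not tested. In Fz10-CreER clones K and R, 1 neuron each had Slc17a6 at 95.4 and 91.8 with Gad1 at 282 and 276. At a level of 10, 10 of 15 Fz10-CreER neurons and 7 of 7 Sox2-CreER neurons had both. At a level of 1, 12 of 15 Fz10-CreER neurons and 7 of 7 Sox2-CreER neurons had both. The levels were set with the values known, and no test was made of these counts.

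**Figure D4:**
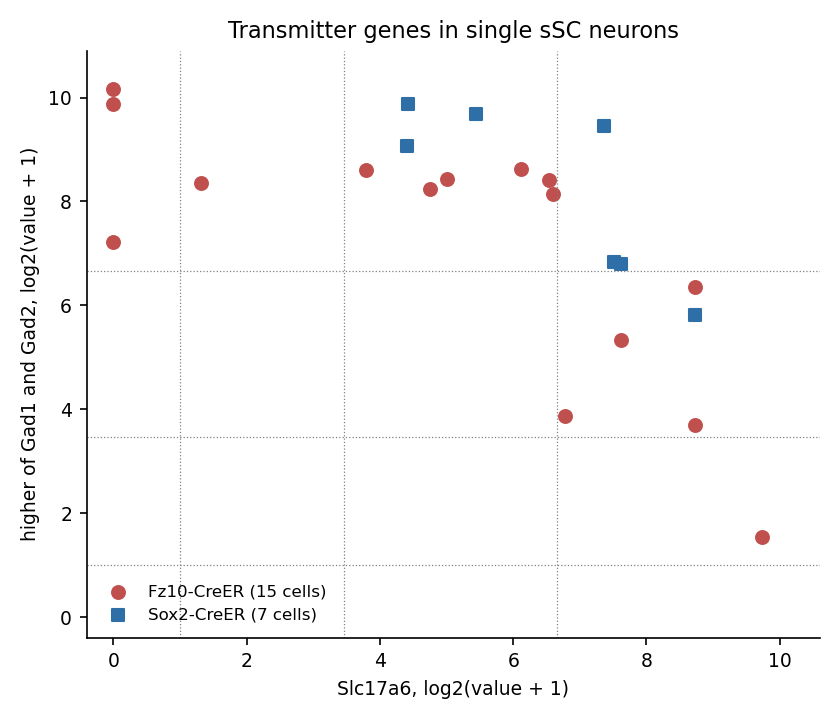
Slc17a6 (x axis) against the higher of Gad1 and Gad2 (y axis), both as log2(value + 1), for 15 Fz10-CreER neurons (red circles) and 7 Sox2-CreER neurons (blue squares). Dotted lines mark values of 1, 10 and 100. The Fz10-CreER neurons reach the axis ends (3 at 0 for Slc17a6), and the Sox2-CreER neurons lie between 20.3 and 424 for Slc17a6.

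Slc6a5, the glycine transporter of glycinergic terminals, reached 1 in 2 of 15 Fz10-CreER neurons (30.5 and 3.23, the sibling neurons of clone R) and in 6 of 7 Sox2-CreER neurons (1.18 to 34.3). In Sox2-CreER clones F, H and M the values that reached 1 lay between 1.18 and 1.37. At a level of 10 the counts were 1 of 15 Fz10-CreER neurons and 3 of 7 Sox2-CreER neurons. The difference was -1.94 (SE 0.74, 95% interval -3.44 to -0.43, unadjusted p = 0.0137), and it did not pass after adjustment. The 15 genes for transmitter synthesis and vesicular transport gave 11 tested, 7 lower and 4 higher in Fz10-CreER clones, with a median of -0.71 against -0.38 for all genes. The median was -0.33 after quantile normalization and -0.69 with the covariate of genes detected, so it lay below 0 in each. Over all fits made it ran from -1.50 to 0.03, and from -0.86 to 0.20 relative to the median of all genes.

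The genes that drove the recombinase were scarce in both groups of neurons. Fzd10 reached 1 in 2 of 15 Fz10-CreER neurons (43.1 in clone I and 2.08 in clone R) and in 0 of 7 Sox2-CreER neurons (highest 0.745 in clone M), and it did not reach the filter for testing. Sox2 reached 1 in 5 of 15 Fz10-CreER neurons (highest 78.8) and in 3 of 7 Sox2-CreER neurons (highest 24.8). Its difference of -0.23 (SE 0.93, 95% interval -2.13 to 1.66) turned to 0.12 after quantile normalization, to 0.36 with the covariate of genes detected and to 0.68 without the 5 libraries. In both groups siblings could carry it together, at 78.8 and 42.5 in Fz10-CreER clone R and at 23.5 and 24.8 in Sox2-CreER clone M. Pax6, a homeobox factor of radial glia and of forebrain and spinal neurons, reached 1 in 2 of 15 Fz10-CreER neurons (highest 4.76) and in 6 of 7 Sox2-CreER neurons (highest 53.1). It differed by -1.99 (SE 0.65, 95% interval -3.32 to -0.65, unadjusted p = 0.00489), and its adjusted p was 1.00.

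Of 22 radial glia and driver genes, 12 were tested, 5 lower and 7 higher in Fz10-CreER clones, and the median was 0.28. It turned to -0.44 without clone H. Slc1a3, the glutamate transporter of radial glia and astrocytes, had a median of 38.1 in Fz10-CreER neurons and 95.7 in Sox2-CreER neurons (-2.09, SE 1.18). Of 17 SOX family genes, 10 were tested, with 8 lower and 2 higher and a median of -0.86. It lay -0.48 from the median of all genes, -0.33 from it after quantile normalization and -0.18 from it with the covariate. Sox10, the SOX factor of oligodendrocytes, reached 1 in 4 of 15 Fz10-CreER neurons and 5 of 7 Sox2-CreER neurons (-2.08, SE 0.95), and Sox8, expressed with it in that lineage, differed by -1.996 (SE 1.08).

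The Wnt pathway, to which Fzd10 belongs, had nearly the median of all genes. Of 55 ligands, receptors and intracellular members, 36 were tested, 28 of them lower and 8 higher in Fz10-CreER clones, where 66.0% of all genes were lower. The median was -0.40 against -0.38 for all genes, and it turned to 0.11 after quantile normalization and 0.23 with the covariate. At an unadjusted p under 0.05, 2 of the 36 were lower and 0 were higher, beside 3.85% and 0.251% of all genes. Fzd3, the Frizzled receptor of axon guidance, had a median of 5.56 in Fz10-CreER neurons and 34.9 in Sox2-CreER neurons, where all 7 lay at 10.05 or more (-2.74, SE 1.11, unadjusted p = 0.0191). Wnt7a, a ligand, reached 1 in 3 of 15 Fz10-CreER neurons and 6 of 7 Sox2-CreER neurons (-1.99, SE 0.89). The ligand Wnt1, the antagonist Dkk1 and the receptor Fzd5 were listed at 0 in all 22 neurons.

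Lineage factors of midbrain neurons were present in both groups and showed no difference past the threshold. Of 13 inhibitory lineage factors tested, 7 were lower and 6 higher in Fz10-CreER clones (median -0.23). Prox1, a homeobox factor, reached 1 in 3 of 15 Fz10-CreER neurons and 3 of 7 Sox2-CreER neurons (-2.02, SE 0.93). Tal1, which with Gata factors specifies midbrain GABAergic neurons, reached 1 in 6 of 15 and 5 of 7 (-1.22, SE 1.16). Of 21 excitatory lineage factors and markers tested, 13 were lower and 8 higher (median -0.29). Rorb, a nuclear receptor, had a median of 10.8 in Fz10-CreER neurons and 52.6 in Sox2-CreER neurons (-1.88, SE 1.33). Cbln2, a secreted synapse organiser, had a median of 0 in Fz10-CreER neurons and 11.7 in Sox2-CreER neurons (-1.70, SE 1.29). The medians of both lists turned positive after quantile normalization (0.36 and 0.31) and with the covariate (0.29 and 0.16), and without the 5 libraries the excitatory one was 0.14 and the inhibitory one -0.58.

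Of 22 regional identity factors, 12 were tested, 6 lower and 6 higher in Fz10-CreER clones, with a median of -0.27 that was 0.48 after quantile normalization, 0.09 with the covariate, -0.73 without clone B and -0.85 with the 11 most abundant gene models left out. Irx2, an Iroquois factor, reached 1 in 5 of 15 Fz10-CreER neurons and 6 of 7 Sox2-CreER neurons (-2.54, SE 1.25, 95% interval -5.10 to 0.01). En1, the engrailed factor of the midbrain and isthmus, reached 1 in 7 of 15 Fz10-CreER neurons (highest 21.8) and was listed at 0 in all 7 Sox2-CreER neurons. En1 was named after its values were seen, and its difference of 1.43 (SE 0.77, unadjusted p = 0.0718) did not pass. Foxa1 and Foxa2, floor plate factors, and Gbx2, a hindbrain factor, were listed at 0 in all 22 neurons.

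Genes of neuronal signalling gave list medians between -0.59 and -0.07, on both sides of the -0.38 of all genes. Of 15 neuropeptide precursors tested, 8 were lower and 7 higher (median -0.32, turning to 0.89 with the covariate and 0.36 without clone B), with Cck differing by -2.24 (SE 1.48) and Nmb by -1.85 (SE 1.02). Of 13 neuropeptide receptors, 8 were lower and 5 higher (median -0.59). Tacr3, the neurokinin receptor for tachykinins of the neurokinin B type, differed by -2.05 (SE 0.97). Crhr1, a corticotropin releasing hormone receptor, lay in the other direction, at 1 or more in 12 of 15 Fz10-CreER neurons and 3 of 7 Sox2-CreER neurons (2.22, SE 1.203). Calcium-binding proteins (10 lower and 6 higher of 16) had a median of -0.07, turning to 0.38 with the covariate, 0.20 without clone B and 0.12 without the 5 libraries, with Calb1 at -1.60 (SE 1.41) and Hpcal1 at 1.18 (SE 1.14). Calb1, a buffer common in superficial neurons, had a median of 118 in Fz10-CreER neurons and 187 in Sox2-CreER neurons.

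Ion channels split in the same way. Of 34 potassium channel genes, 18 were lower and 16 higher (median -0.10), with Kcnj6, a channel gated by G proteins, at -1.68 (SE 1.05) and Kcnq3, of the M current, at -1.66 (SE 1.12). Of 28 sodium, calcium and HCN channel genes, 19 were lower and 9 higher (median -0.48). Hcn3, a channel opened by hyperpolarisation, reached 1 in 2 of 15 Fz10-CreER neurons and 5 of 7 Sox2-CreER neurons (-2.10, SE 0.85). Cacnb4, an auxiliary calcium channel subunit, had a median of 102 in Fz10-CreER neurons and 64.0 in Sox2-CreER neurons (1.67, SE 1.00). Of 26 vesicle release genes, 17 were lower and 9 higher (median -0.19), with the calcium sensor Syt2 at 1.95 (SE 1.18) and the priming factor Unc13c at -1.80 (SE 1.22). All of these medians turned positive with the covariate.

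Among receptors, 22 GABA and glycine receptor genes were tested, 17 lower and 5 higher in Fz10-CreER clones (median -0.40, turning to 0.16 with the covariate). Gabrr2, a rho subunit known from retina, reached 1 in 2 of 15 Fz10-CreER neurons and 5 of 7 Sox2-CreER neurons (-3.40, SE 1.24, 95% interval -5.93 to -0.88, unadjusted p = 0.0098). Glra3, a glycine receptor subunit, differed by -2.18 (SE 1.07). Of 24 glutamate receptor genes, 14 were lower and 10 higher (median -0.43), with Gria2 at -1.54 (SE 1.14) and Grin2d at 1.25 (SE 1.17). Of 22 monoamine and acetylcholine receptor genes, 13 were lower and 9 higher (median -0.14), with Chrnb3 at -2.01 (SE 1.25) and Htr1a at -1.03 (SE 0.65). Of 41 adhesion and guidance genes, 30 were lower and 11 higher (median -0.42, turning to 0.29 after quantile normalization). Epha3, an ephrin receptor, differed by -2.51 (SE 0.99), and Cdh13, a cadherin without a cytoplasmic tail, by -2.55 (SE 1.17). Cdh13 had a median of 4.27 in Fz10-CreER neurons and 64.0 in Sox2-CreER neurons, and their ranges overlapped.

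Activity and stress genes showed no difference past the threshold. Of 21 immediate early genes, 13 were lower and 8 higher (median -0.38). Nr4a3, an orphan nuclear receptor, reached 1 in 7 of 15 Fz10-CreER neurons and 1 of 7 Sox2-CreER neurons (1.49, SE 0.87). Ier3, a survival gene induced early, reached 1 in 4 of 15 and 4 of 7 (-1.87, SE 1.07). Of 13 heat shock genes, 7 were lower and 6 higher (median -0.03), with the chaperonin Hspd1 at -1.23 (SE 1.11) and Hspa5, of the endoplasmic reticulum, at 1.52 (SE 1.13). Hspa5 was at -0.28 without clone H, whose neuron was at 0. Of 10 mitochondrially encoded genes, 3 were lower and 7 higher (median 0.14), with mt-Co3 at -1.07 (SE 0.89) and mt-Co2 at 0.52 (SE 0.65). Both of these lay near the floor, at most 18.5 for mt-Co3 and 8.80 for mt-Co2, where the list summed to 58892 or more in each neuron.

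Transcripts of other cell types were found in both groups. The 15 astrocyte markers summed to between 343 and 3814 in Fz10-CreER neurons (median 1274) and between 903 and 2180 in Sox2-CreER neurons (median 1289). Yet 13 of 15 were lower and 2 higher in Fz10-CreER clones on the log2 scale, with the lowest median of the 28 lists (-1.202). That median stayed below 0 after quantile normalization (-0.55) and with the covariate (-0.70). Over the fits made it ran from -1.84 to -0.48. Relative to the median of all genes it ran from -1.20 to 0.007, so in some fit it lay at that of all genes. Slc4a4, a bicarbonate transporter of astrocytes, had a median of 7.94 in Fz10-CreER neurons and 18.8 in Sox2-CreER neurons (-2.37, SE 1.10). A Fz10-CreER neuron had 5 to 14 of the 15 markers at 1 or more, and a Sox2-CreER neuron had 8 to 15. No astrocyte marker was at 0 throughout either group. The part of astrocyte transcripts in the other differences was not tested.

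Oligodendrocyte markers summed to between 1571 and 13192 in Fz10-CreER neurons (median 3952) and between 1543 and 31223 in Sox2-CreER neurons (median 2577), with 11 of 14 lower, 3 higher and a median of -0.72. This median was -0.44 after quantile normalization, -0.09 with the covariate, -1.23 without clone H and -0.79 without the 5 libraries. Olig1, a lineage factor, differed by -2.76 (SE 1.42). Microglia markers summed to between 626 and 8501 in Fz10-CreER neurons (median 2207) and between 186 and 15932 in Sox2-CreER neurons (median 809), with 6 of 13 lower, 7 higher and a median of 0.10. This one was -0.41 without clone B and -0.34 with the covariate, but 0.62 after quantile normalization, 0.67 without clone H and 0.72 without the 5 libraries. The lysosomal gene Cd68, high in microglia, differed by -2.78 (SE 1.62), and by 0.17 without the 5 libraries. Of 8 vascular and meningeal genes tested, 3 were lower and 5 higher (median 0.32, turning to -0.06 without clone H and reaching 0.76 after quantile normalization and 0.94 with the covariate), and the sums had medians of 96.2 in Fz10-CreER neurons and 40.3 in Sox2-CreER neurons. Vtn, a matrix protein of pericytes, reached 1 in 2 of 15 Fz10-CreER neurons and 5 of 7 Sox2-CreER neurons (-2.48, SE 0.74, adjusted p = 0.856), while Pdgfrb, the pericyte receptor, lay at 1.31 (SE 0.91). Kcnj8 and Lum were listed at 0 in all 22 neurons.

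Red blood cell transcripts had the highest list median, 1.18 (-0.02 to 3.04 over the fits made), from 5 genes tested, 2 lower and 3 higher in Fz10-CreER clones. Their sum had a median of 1041 in Fz10-CreER neurons (0 to 9626) and 86.3 in Sox2-CreER neurons (46.9 to 6691). Hbb-bt, a beta globin gene, reached 1 in 12 of 15 Fz10-CreER neurons (median 95.8) and 3 of 7 Sox2-CreER neurons (highest 41.3), a difference of 2.71 (SE 1.46, 95% interval -0.27 to 5.68). Globin genes are near-identical copies, so their reads can be divided among copies by the counting.

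**Figure D5:**
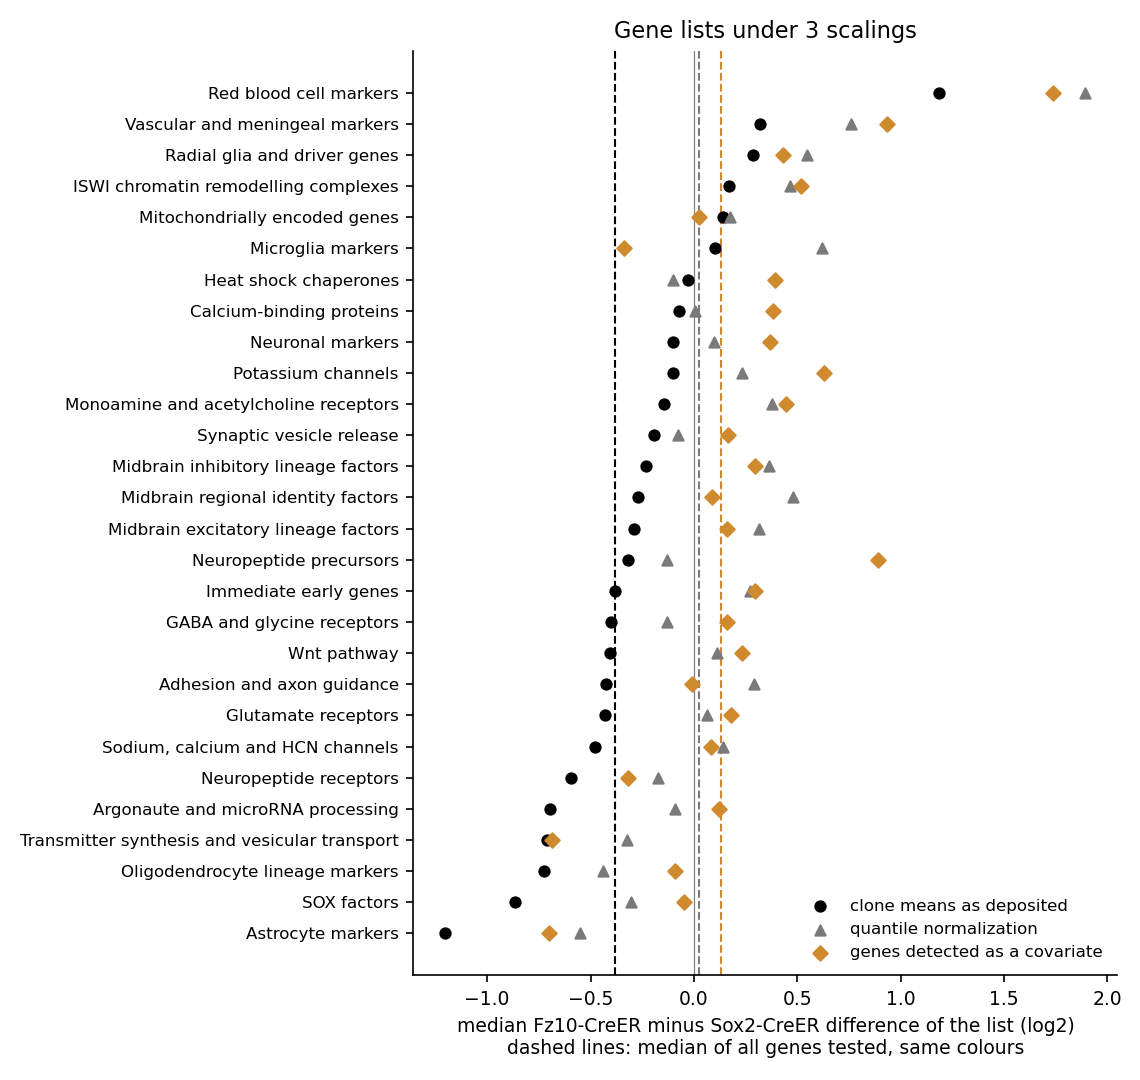
Median Fz10-CreER minus Sox2-CreER difference (x axis, log2) of the 28 gene lists (rows) as deposited, after quantile normalization and with the covariate of genes detected, with dashed lines at the median of all genes in each. In the deposited values 22 of 28 medians lie below 0 and 16 lie above the all-gene median of -0.38. Astrocyte markers lie lowest (-1.202) and red blood cell markers highest (1.18).

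Over the 28 lists, 478 genes were tested, 299 lower and 179 higher in Fz10-CreER clones, and 0 passed after adjustment. At an unadjusted p under 0.05, 17 of the 478 were lower (3.56%) and 0 were higher, beside 3.85% and 0.251% of all genes. The lists therefore held about the same share as the background on the lower side.

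Whole profiles showed no detectable excess of likeness within a driver. Over the 2000 most variable genes, the mean correlation between clones was 0.228 within Fz10-CreER, 0.281 within Sox2-CreER and 0.256 between the drivers. Pairs ran from -0.098 to 0.476 within Fz10-CreER, from 0.085 to 0.516 within Sox2-CreER and from -0.103 to 0.501 between drivers. Within minus between was -0.0199 (two-sided exact permutation p = 0.729, n = 16 clones).

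Siblings within 1 clone could differ widely in transmitter genes. In Sox2-CreER clone N, Slc17a6 was 42.3 in one sibling and 424 in the other, with Gad1 at 817 and 55.3. In Sox2-CreER clone M it was 196 and 20.3, with Gad1 at 96.1 and 535. In Fz10-CreER clone R it was 91.8 and 196, with Gad1 at 276 and 14.9. In Fz10-CreER clones K, S and T both siblings carried more Gad1 than Slc17a6. Chrac1 was above 0 in both siblings of Sox2-CreER clones M (63.7 and 255) and N (227 and 1029.9) and of Fz10-CreER clone K (172 and 25.05), in 1 sibling of Fz10-CreER clones S and T, and in neither of clone R.

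The same drivers were compared in the deep colliculus, with 7 Fz10-CreER and 4 Sox2-CreER clones, most of which also gave sSC cells. There the median difference over all genes was 0.40, and the median of the difference between tissues, sSC minus dSC, was -0.80. Chrac1 differed by -1.04 in dSC (SE 1.41), and its sSC minus dSC term was -5.23 (limma adjusted p = 0.792), so a difference between the tissues was not shown. Of the other leading genes, Scx differed by -0.12, Krt1 by -0.09, Vamp3 by 0.04, Slc25a20 by -0.93 and Prrg1 by -1.18 in dSC, while Ints12 and 4930447C04Rik lay on the other side (2.25 and 2.02). Of the genes leading the higher side, Fabp5 differed by 2.07 and Ddb2 by 1.21 in dSC, while Fopnl (0.27), Rcc1 (0.05), Yeats4 (0.12) and Trim47 (-0.11) lay close to 0. Of 14613 genes, 1 passed for the interaction of driver and tissue (0.00684%), and 845 had an unadjusted p under 0.05. This was Gm17122, which overlaps Coro1c on the opposite strand, so reads in the stretch shared by that pair cannot be told apart either. It was listed at 0 in sSC in 7 of 15 neurons for Fz10-CreER and 0 of 7 for Sox2-CreER. In dSC it was at 0 in 0 of 7 neurons for Fz10-CreER and 4 of 5 for Sox2-CreER. In sSC its difference was -6.21 (SE 1.84, adjusted p = 0.856), in dSC 8.70 (SE 2.00), and the interaction was -14.90 (adjusted p = 0.0311). The call ended in 16 of 24 alternatives, most of them with 1 clone left out.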

How the data were processed

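Per the labels' protocols, polyadenylated RNA of single neurons from MADM clones was made into libraries using the SMART-Seq Single Cell PLUS kit. The submitters' processing notes list the build GRCm39 beside STAR 2.7.9a and R 4.0.3. The deposited table holds a signal per gene and cell that the authors call TPM of exon plus intron. It sums to 2000000 in every cell, so it is handled here as a normalised signal, whereas the test had been planned for TPM. The sources used here do not give the annotation release, the strand or the formula, and depth is unknown, so no counting interval is printed. Of 55359 gene identifiers, 52083 matched a symbol in GENCODE M21, which is of an older build and gave names, gene types and opposite-strand overlaps but no positions. No 2 cells held identical values.

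Values were taken as log2(value + 1), which understates the difference of low genes, and a gene was tested where 25% or more of the 22 sSC cells reached 1. Clone means (11 Fz10-CreER, 5 Sox2-CreER) were fitted under R 4.3.3 using limma 3.58.1, whose eBayes step had a trend and robust variances, and p-values were adjusted by Benjamini-Hochberg over all genes at a threshold of 0.05. The interaction with tissue used means per clone and tissue, and its main fit treated the means of a clone as independent. Single measures had two-sided exact permutation tests over clones, run with scipy 1.17.1, pandas 2.3.3 and numpy 2.4.6 under Python 3.11.15, and figures were drawn by matplotlib 3.10.9. The fits were tested on simulated data.

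Named genes are those past the threshold or, failing that, the 8 protein-coding genes of smallest p per direction, the 2 members of smallest p in each list (some are not reported here), and a fixed set of neuronal, transmitter and driver genes and Chrac1, Ago2 and Vtn. Unless said otherwise, p-values of named list members were not past the threshold after adjustment. The comparison, the 28 lists (588 genes, 1 without a match) and the named set were chosen with earlier results of these data known. Alternatives changed the pseudocount, filter, scaling, covariates, weighting of cells, the model and the clones included.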

Additional observations from a re-analysis of the deposited data

Results flagged for a closer look

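For 13 of 78 measures checked over the 5 Sox2-CreER clones, 1 clone stood apart from the other 4. Chance alone flags about 1 in 20 sets of normally distributed values. That rate need not hold here, where many values are 0 and the genes were selected, so the 13 cannot be read as an excess. Values are means of log2(value + 1) per clone. Clone H, the Sox2-CreER clone with the fewest genes detected, was the low clone for Prrg1 (0.00), Ddb2 (0.00), Uchl1 (3.15), Ier3 (0.00) and Hspa5 (0.00). Clone Q was low for Krt1 (0.00) and clone N for Vamp3 (2.67). Clone F was the high clone for Irx2 (8.11) and Wnt7a (6.34). Clone Q was high for Trim47 (2.15) and Pdgfrb (1.38), and clone M for Nr4a3 (1.11) and Fzd10 (0.40), where the other 4 clones were at 0. The Fz10-CreER clones, at 11, were too many for this check.

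The driver difference of Gm17122 in sSC minus that in dSC was -14.90 on the log2 scale (limma adjusted p = 0.0311, 1 of 14613 genes). Gm17122 overlaps Coro1c on the opposite strand, and without the use of strand its reads in the shared stretch cannot be told from those of Coro1c. Its clone means averaged 4.84 ± 5.26 in Fz10-CreER sSC clones (SD, n = 11) and 11.05 ± 0.87 in Sox2-CreER sSC clones (n = 5), then 10.19 ± 1.40 in Fz10-CreER dSC clones (n = 7) and 1.49 ± 2.99 in Sox2-CreER dSC clones (n = 4).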

How the results depend on the processing

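No paired analysis of the driver comparison was possible because no clone carries both drivers. For the interaction, 7 Fz10-CreER and 2 Sox2-CreER clones had cells in both sSC and dSC, and the main fit ignored this pairing. A fit that modelled the correlation within clones gave -15.00 for Gm17122 (limma adjusted p = 0.0226). Of 33 alternatives to the driver comparison, 29 left 0 genes past the threshold. A pseudocount of 10 gave 1 gene (Chrac1) and a joint fit of sSC and dSC gave 1 (Gm8822). Leaving out 1 clone gave 0 to 5 genes, with 1 without F (Gm48265) and 5 without H. The median difference over all genes (-0.38) was -0.638 and -0.142 with pseudocounts of 0.1 and 10, -0.230 with no filter, 0.025 after quantile normalization, 0.131 with the covariate of genes detected, -0.508 without the 2 cells of fewest genes, and -0.173 with 1 cell per clone and the poorest cell omitted, an alternative chosen after seeing the data. Leaving out clones gave -0.778 to -0.136. The interaction count of 1 became 0 with a pseudocount of 10, with genes detected as a covariate and with eBayes lacking trend and robust, and was 0 to 1 with clones left out (0 without B, C, D, F, H, I, J, L, M, N, Q, R or S).

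Signs turned for small differences. Transmitter balance was -0.420 with a pseudocount of 10, -0.660 without Slc32a1, and -0.733 to 1.03 with clones left out. The gene Slc32a1 was -0.036 with a pseudocount of 10, -0.329 on log2 of the mean, -0.699 without the 2 cells, and -0.636 to 0.674 with clones left out. Sox2 was 0.011, 0.115 and 0.356 (pseudocount 10, quantile, covariate) and -0.714 to 0.597. Snap25 was 0.123 (covariate), 0.040 (without the 2 cells) and -0.330 to 0.053. Without the 2 cells Uchl1 was -0.098 and Hspa5 -0.370, and with clones left out they were -0.263 to 1.58 and -0.277 to 2.14. Without the 5 libraries whose glial markers outweighed neuronal ones, also chosen after seeing the data, Slc32a1 was -0.921, Sox2 0.676, Snap25 0.136, Uchl1 -0.193, Hspa5 -0.296 and Cd68 0.174. For named genes under alternatives, 2404 values kept direction and side, 25 turned and 5 passed. Read depth is unknown, and 5 Sox2-CreER clones limit the precision.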
